A study of Homo sapiens with 15 samples.

Results

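The cells infected with a hairpin against PALI1 were set directly against cells infected with a hairpin against G9a. All were LNCaP cells, an established human prostate cancer line that grows in response to androgen. Their RNA was sequenced and deposited as RPKM, that is, reads per kilobase of gene model, scaled to the reads of the library. The genes compared were the 12073, of 26443 with values, that reached 1 RPKM or more in 3 or more of the 6 libraries of the 2 groups. The series holds 15 libraries in 5 groups. Of these, 3 libraries came from cells with a short hairpin RNA against PALI1 (shPALI1), 3 from cells with a hairpin against G9a (shG9a) and 3 from cells with the empty lentiviral vector (pLKO). All groups were of wild-type genotype by their labels, grown in serum-containing RPMI medium, and were taken 4 to 5 days after infection. The pLKO libraries took no part in the test and serve to place each gene. The labels give 1 hairpin name per target, so a response to the loss of the target and a response to the hairpin itself cannot be told apart. They do not say whether the 3 libraries of a group came from separate cultures, so p values here reflect only library-to-library spread, part of which may be technical.

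Polycomb repressive complex 2 (PRC2) places methyl groups on lysine 27 of histone H3, a mark of silenced developmental genes, and works with different accessory proteins. PALI1 is one of these accessory proteins, is made from the LCOR locus in vertebrates, and is known to bind G9a as well. G9a, encoded by EHMT2, forms a dimer with its relative GLP, encoded by EHMT1, and methylates lysine 9 of histone H3, another silencing mark. The series title names PALI1 as a link between PRC2 and chromatin targeted by G9a, so the comparison asks which genes respond differently to the 2 hairpins and which do not.

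The 9 libraries held 10.56 to 15.94 M reads by the step that 1 read makes in short RNA genes, with 79.7% to 81.6% of such values under 50 reads within 0.05 of a whole number. At these depths 1 RPKM in a gene model of 2 kb stood for 21.1 to 31.9 reads. Column sums lay between 266934 and 287935 RPKM in shPALI1 and between 255052 and 265270 RPKM in shG9a, so they did not overlap. The luminal marker KLK3, which encodes prostate-specific antigen, averaged 300.1 RPKM in shPALI1, 364 RPKM in shG9a and 1108 RPKM in pLKO. Of the markers of other cell types, 10 immune, 7 endothelial, 9 fibroblast, 7 basal and 8 neuroendocrine genes, 1, 1, 2, 0 and 2 reached the filter in that order, and PTPRC, CD3E and MS4A1 were listed at 0 in all 9 libraries. Those that did reach it differed between the hairpins. VWF and SYP reached it through shG9a alone and COL3A1 through shPALI1 alone, so their direction was fixed by the filter. The summed immune markers, nearly all CD68, lay at 4.31 to 4.92 RPKM in shPALI1, 2.78 to 3.55 in shG9a and 2.39 to 3.32 in pLKO. The endothelial sum, nearly all VWF, lay at 0.650 to 0.925, 2.59 to 2.62 and 0.956 to 1.28 RPKM in the same order, with PECAM1 and CDH5 near 0. The neuroendocrine sum, mostly ENO2 and SYP, lay at 7.34 to 8.61, 12.8 to 14.4 and 7.999 to 10.2 RPKM, with CHGA and INSM1 near 0. The part of such cells in the results was not tested.

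The targeted genes went with the labels. C10orf12, the row that covers the part distinguishing PALI1 from LCOR, had 0.667, 1.20 and 1.03 RPKM in the shPALI1 libraries, 5.20, 4.56 and 4.76 RPKM in the shG9a libraries and 3.77, 3.94 and 4.44 RPKM in the pLKO libraries. The 3 shPALI1 libraries lay below all others (log2 difference -1.58 ± 0.11 SE, adjusted p = 7.8e-06 with limma and Benjamini-Hochberg adjustment). LCOR itself (chr10:96832282-96995959, plus strand, GRCh38) averaged 3.09 ± 0.28 RPKM in shPALI1, 4.24 ± 0.20 in shG9a and 5.15 ± 0.82 in pLKO (SD, n = 3 each; log2 difference -0.36, adjusted p = 0.0044). Both transcripts come from this locus, so the LCOR row may hold reads of PALI1 transcripts, and its call was lost in a model over all 15 libraries (adjusted p = 0.06). EHMT2 (chr6:31879759-31897687, minus strand) had 3.97, 4.03 and 3.89 RPKM in shPALI1, 0.939, 0.939 and 0.988 RPKM in shG9a and 4.17, 3.51 and 3.48 RPKM in pLKO. Here the shG9a libraries were the low ones and the shPALI1 libraries lay among the pLKO libraries (log2 difference 1.34 ± 0.076 SE, adjusted p = 2.3e-06). EHMT2 reached the filter through the shPALI1 libraries alone, so its direction in this test was fixed by the filter. An antisense gene covers 14.1% of its exon bases. EHMT1, at 19.8 ± 1.2 RPKM in shPALI1, 22.0 ± 0.16 in shG9a and 18.4 ± 1.4 in pLKO, did not pass (log2 difference -0.14, adjusted p = 0.06), but did after rescaling to TPM (0.022) and without shPALI1 replicate 3 (0.035).

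Differences between the hairpins were spread over most of the tested genes and were mostly small. With limma on log2(RPKM + 1), 7083 genes passed at an adjusted p of 0.05, which is 58.7% of those tested. Of these, 3541 (29.3%) were higher in shPALI1 than in shG9a and 3542 (29.3%) were lower, with a median difference over all genes of 0.01. Rescaling to a common sum (TPM) moved the split to 2767 higher and 4233 lower, and the median to -0.07. The median absolute difference was 0.28 on the log2 scale, and 1972 of the called genes differed by less than 0.32. At least 2-fold differences were called for 324 genes higher (2.68%) and 414 lower (3.43%); with a pseudocount of 0.1 these counts were 499 and 646. The groups did not overlap for 7882 genes, 65.3% of all. Some low genes reached the filter through the libraries of 1 hairpin alone, so that their direction was fixed by it. Among those named here, they include C2orf54, MSMB, KRT19, CLDN8, VWF and SYP through shG9a. Through shPALI1 they include EHMT2, CTGF, COL3A1, IFIT1, IFIT2, PCDHB15 and the cleavage-stage genes other than KHDC1. Of 696 distinct genes in the lists described below, the cleavage-stage genes left out, 22 did so through shPALI1 and 8 through shG9a. In bulk RNA, fewer cells of a kind and less RNA per cell cannot be told apart, which holds for each gene below.

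**Figure D1:**
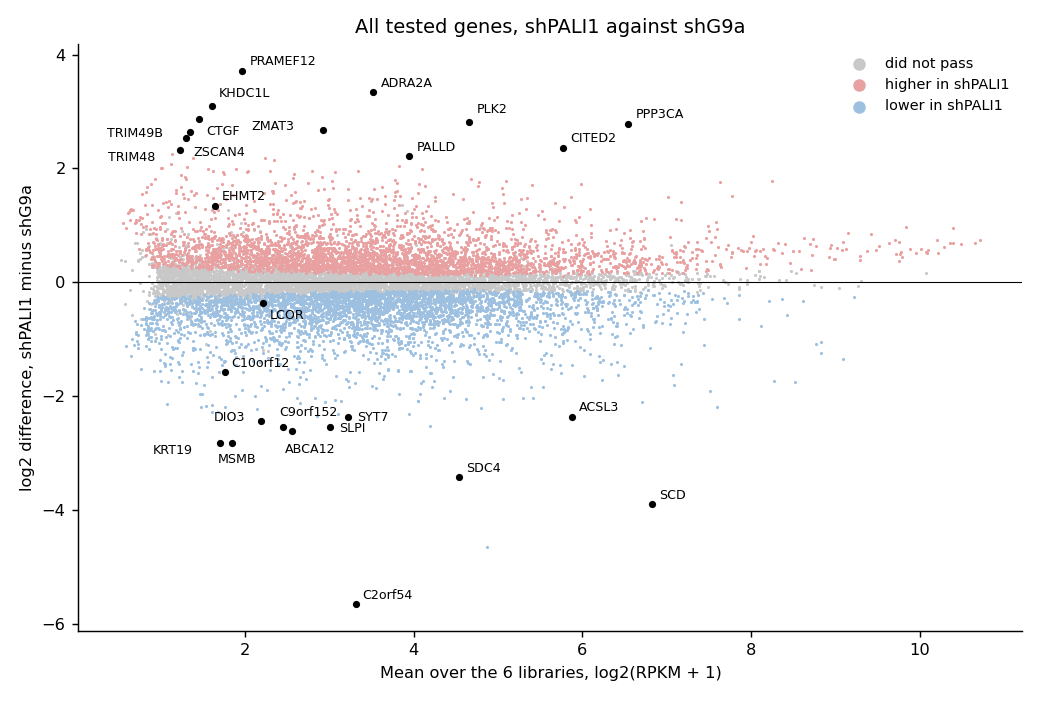
Log2 difference of shPALI1 minus shG9a (vertical) against the mean log2(RPKM + 1) over the 6 libraries (horizontal) for all 12073 tested genes, 1 point a gene. Red points were higher in shPALI1, blue points lower and grey points did not pass; target genes and genes with large differences are labelled in black, from PRAMEF12 at 3.72 to C2orf54 at -5.65.

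Genes lower in shPALI1 than in shG9a reached larger differences than genes higher in it. C2orf54 had 0.282, 0.540 and 0.379 RPKM in shPALI1, 65.1, 72.0 and 71.0 RPKM in shG9a, and 0.331, 0.257 and 0.0957 RPKM in pLKO. It was near 0 in both shPALI1 and pLKO and high in every shG9a library (log2 difference -5.65 ± 0.080 SE, adjusted p = 6.9e-09). SCD, stearoyl-CoA desaturase (chr10:100347124-100364834, plus strand), had 25.2, 27.0 and 33.6 RPKM in shPALI1, 420.4, 452 and 438 RPKM in shG9a, and 163, 166 and 152.4 RPKM in pLKO. The 3 groups were apart, with pLKO between (log2 difference -3.90 ± 0.097 SE, adjusted p = 6.2e-08). SDC4, a cell-surface heparan sulfate proteoglycan, averaged 6.11 ± 0.59 RPKM in shPALI1, 75.4 ± 4.7 in shG9a and 10.3 ± 0.78 in pLKO (SD, n = 3 each; log2 difference -3.43).

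Further genes in this direction encode secreted proteins, a keratin and lipid or hormone enzymes. MSMB, a secreted prostate protein, averaged 0.359 RPKM in shPALI1, 8.56 in shG9a and 1.09 in pLKO (log2 difference -2.82). KRT19, a simple-epithelium keratin, averaged 0.238, 7.67 and 2.71 RPKM in the same order of groups (-2.82), and SLPI, a secreted protease inhibitor, 2.33, 18.3 and 5.93 RPKM (-2.53). For KRT19 and SLPI the 3 pLKO libraries lay between the groups. ABCA12, a lipid transporter, and DIO3, an enzyme that inactivates thyroid hormone, differed by -2.62 and -2.44. Both were low in shPALI1 (1.38 and 0.957 RPKM) and in pLKO (1.35 and 0.523 RPKM) and high in shG9a (13.6 and 9.59 RPKM). SYT7, a calcium sensor of membrane fusion, C9orf152 and ACSL3, which activates fatty acids, differed by -2.37, -2.53 and -2.36, each with pLKO between.

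Among genes higher in shPALI1, ADRA2A, an adrenergic receptor gene (chr10:111077163-111080907), had 33.3, 37.5 and 35.5 RPKM in shPALI1, 2.52, 2.68 and 2.61 RPKM in shG9a, and 17.6, 14.99 and 14.4 RPKM in pLKO. All 3 groups were apart, with pLKO between (log2 difference 3.34 ± 0.062 SE, adjusted p = 1.5e-08). PLK2, a kinase induced by p53, had 66.8, 67.1 and 63.9 RPKM in shPALI1, 8.41, 8.48 and 8.60 RPKM in shG9a, and 11.5, 12.9 and 11.8 RPKM in pLKO. Here pLKO lay close to shG9a (2.82 ± 0.047 SE, adjusted p = 9.1e-09). PPP3CA, the catalytic subunit of the phosphatase calcineurin, showed the opposite placing: 242, 249.7 and 242 RPKM in shPALI1, 34.5, 34.8 and 34.4 RPKM in shG9a, and 178, 200.4 and 169.7 RPKM in pLKO (2.78 ± 0.046 SE, adjusted p = 9.1e-09). ZMAT3, an RNA-binding zinc finger protein induced by p53, averaged 18.1 ± 0.28 RPKM in shPALI1, 2.01 ± 0.15 in shG9a and 10.7 ± 1.2 in pLKO (2.67). CITED2, a transcriptional coregulator, averaged 123 ± 4.0 RPKM in shPALI1, 23.1 ± 1.9 in shG9a and 30.0 ± 4.6 in pLKO (2.37). CTGF, a matrix-associated growth regulator, was near 0 in shG9a and pLKO. It had 6.71, 5.87 and 6.56 RPKM in shPALI1, 0, 0.0281 and 0 RPKM in shG9a, and 0.0345, 0.0268 and 0.0366 RPKM in pLKO (2.87). PALLD, an actin-binding scaffold, averaged 32.4 ± 3.3 RPKM in shPALI1, 6.17 ± 0.48 in shG9a and 4.53 ± 0.23 in pLKO (2.22).

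**Figure D2:**
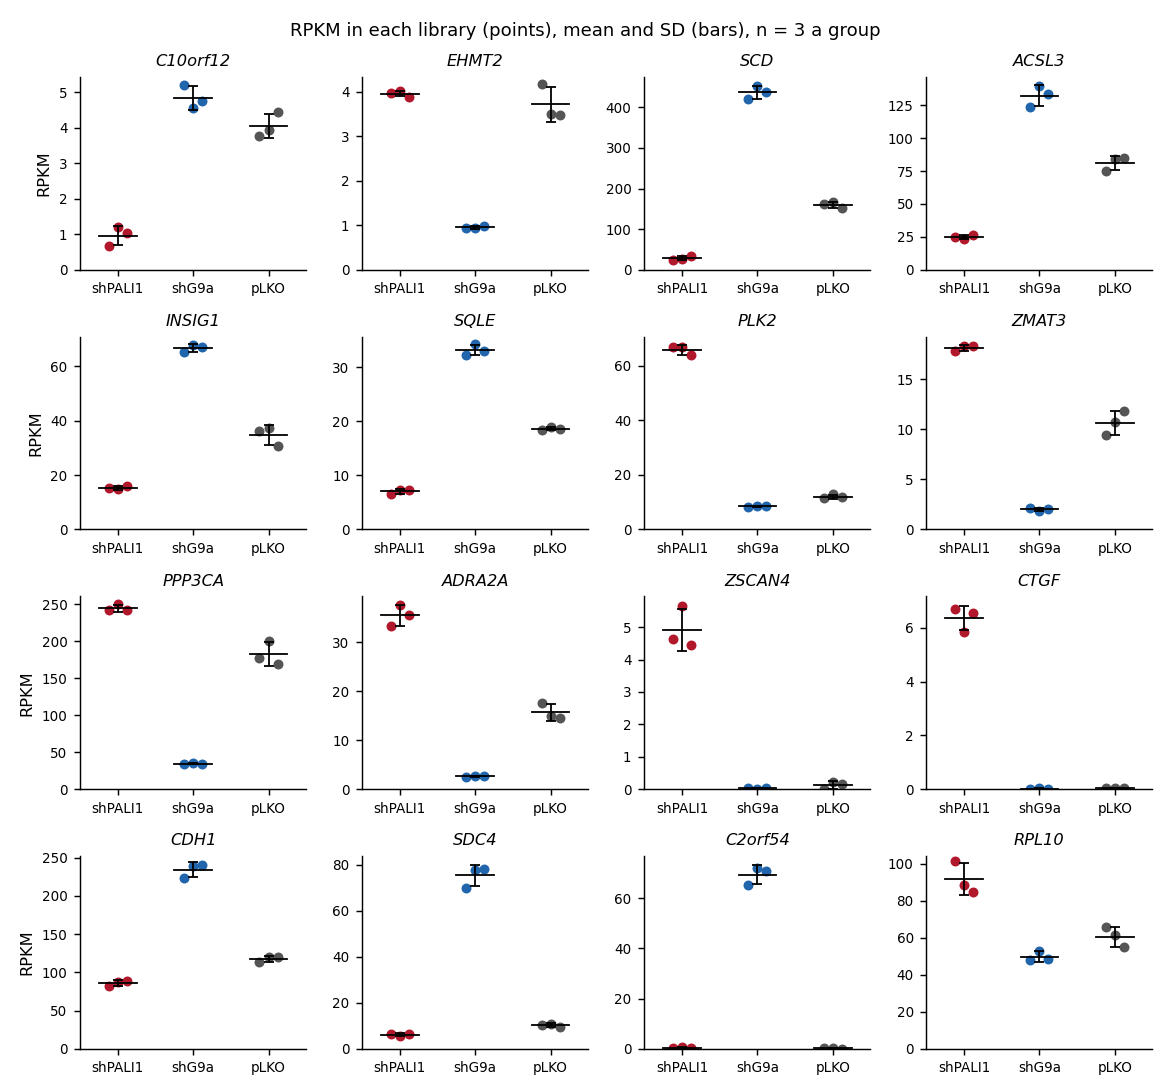
RPKM of 16 genes (vertical axes, each from 0) in the 3 libraries of shPALI1, shG9a and pLKO (points), with the mean and SD as bars. C10orf12 is low in shPALI1 alone and EHMT2 in shG9a alone; SCD, ACSL3, INSIG1, SQLE and CDH1 have pLKO between the hairpins, as do ADRA2A, ZMAT3 and PPP3CA in the other direction, while C2orf54 is high in shG9a alone and CTGF and ZSCAN4 in shPALI1 alone.

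A pair of 7-base words in 3′ UTRs, found in an earlier analysis of these libraries, divided the genes. The shares that follow are therefore a description, with no test. The word TTTAACA occurs in the 3′ UTR of 29.8% of the 3171 genes higher in shPALI1 that have an annotated UTR, 14.8% of the 3256 lower genes and 19.0% of the 4145 genes that did not pass. Among genes called at least 2-fold, 43.3% of 268 higher and 9.49% of 369 lower genes hold it. The word GAGGATA leans the other way, with 5.99% of higher, 9.92% of lower and 6.85% of uncalled genes. Among genes called at least 2-fold it was held by 7.09% of higher genes, which is no less than among uncalled genes, and by 11.7% of lower genes. Genes with TTTAACA alone had a median difference of 0.14 (1912 genes), genes with GAGGATA alone -0.19 (498 genes) and genes with neither -0.02 (7863 genes). Side by side, the medians from pLKO were -0.02 in shPALI1 and -0.13 in shG9a for genes with TTTAACA alone, and -0.17 in shPALI1 and 0.03 in shG9a for genes with GAGGATA alone. Longer UTRs hold more words. In each of 5 equal bins of UTR length the order of the medians was the same. In the bin of shortest UTRs the medians were 0.28 with TTTAACA, 0.02 with neither and -0.22 with GAGGATA, and in the longest 0.09, -0.12 and -0.20.

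The sites below are those of genes named above with large differences, read from GENCODE v29 on GRCh38 as RNA-sense DNA with the word in capitals, and they show that the surrounding bases are not alike.
PPP3CA, chr4:101025406-101025412, minus strand: catcaaacattTTTAACAaaatgatgtac
PPP3CA, chr4:101024736-101024742, minus strand: tctttaaagttTTTAACAtaagcttgtca
PPP3CA, chr4:101024478-101024484, minus strand: cattcatatttTTTAACAattgtataagt
ZMAT3, chr3:179022517-179022523, minus strand: ttttggttaatTTTAACAttatagtgctg
CITED2, chr6:139372094-139372100, minus strand: ggagagcaggaTTTAACAtaattggcata
PALLD, chr4:168928389-168928395, plus strand: tgtaatgtggaTTTAACAtcaataaatat
SCD, chr10:100361683-100361689, plus strand: tagttgaggccGAGGATAaagaaaagaca
SYT7, chr11:61518123-61518129, minus strand: ccctgaatgtcGAGGATAgtatatagccc
ACSL3, chr2:222942487-222942493, plus strand: attctgaaagaGAGGATAgaatttaaaga
The first 6 sites belong to genes higher in shPALI1 and the last 3 to genes lower in it, and PPP3CA holds its word 3 times in a UTR of 2456 bases. Other carriers went against their word. LRRN1 and SLC7A11 hold GAGGATA and were higher in shPALI1 (log2 differences 2.15 and 1.02), and MCM6 and NDUFA9, which hold TTTAACA, were lower (-0.42 and -0.93). LCOR and CERS6 hold both words. Carriers named below include SQLE with GAGGATA, lower in shPALI1. HS3ST1, RRM2B, SDC2, SPTSSA, RBPJ and RPL15 hold TTTAACA and were higher, while ADAM10 holds it and was lower. Not every carrier is marked where its values are given. The hairpin sequences were not analysed here, and the part that these words or UTR length have in any result was not tested. For most of the gene lists below, counts are also given over members whose annotated UTR holds neither word.

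**Figure D3:**
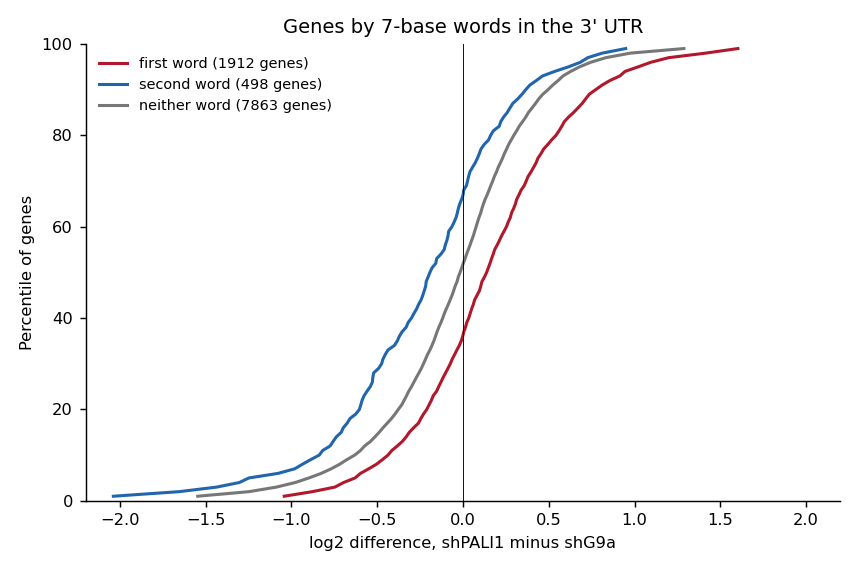
Percentile of genes (vertical) by log2 difference of shPALI1 minus shG9a (horizontal), for genes whose 3′ UTR holds the first word alone (TTTAACA, 1912 genes), the second alone (GAGGATA, 498 genes) or neither (7863 genes). The curve of the first word lies to the right of the others and that of the second to the left, with medians of 0.14, -0.19 and -0.02.

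Placed by the control, the 2 hairpins lay on opposite sides of it for most genes at least 2-fold lower in shPALI1. For genes at least 2-fold higher, this held for a minority. Of the 414 genes called at least 2-fold lower in shPALI1, all 3 pLKO libraries lay strictly between the groups for 266 (64.3%), above both for 24 and below both for 13. For 47 genes pLKO overlapped shPALI1, for 57 it overlapped shG9a and for 7 both. Of the 324 genes called at least 2-fold higher, pLKO lay between for 142 (43.8%), above both for 16 and below both for 29, and overlapped shPALI1 for 60, shG9a for 65 and both for 12. Over all called genes, whose differences are smaller, it lay between for 598 of 3541 higher (16.9%) and 848 of 3542 lower genes (23.9%). Genes far from pLKO on both sides included LRRN1, a neuronal membrane protein (9.70 RPKM in shPALI1, 1.42 in shG9a, 3.91 in pLKO), GADD45A, a growth-arrest gene (33.4, 7.62 and 16.3 RPKM in the same order), HS3ST1, a heparan sulfate sulfotransferase (6.95, 1.10 and 2.72 RPKM), FERMT2, an integrin activator (8.68, 1.49 and 4.45 RPKM), and RTN4, which shapes the endoplasmic reticulum (11.9, 59.1 and 27.7 RPKM). The first 4 were higher in shPALI1, with log2 differences of 2.15, 1.99, 1.94 and 1.96, and RTN4 was lower (-2.22).

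Sterol genes formed one of the most uniform groups. Of 20 cholesterol synthesis enzymes, all tested, 17 were lower in shPALI1 than in shG9a, 0 were higher and 8 were lower at least 2-fold, with a median log2 difference of -0.75, where the median of all genes was 0.01. For 11 of the 20 all pLKO libraries lay between the groups, and the medians from pLKO were -0.37 in shPALI1 and 0.42 in shG9a. SQLE, which encodes squalene epoxidase, had 6.59, 7.37 and 7.26 RPKM in shPALI1, 32.3, 34.3 and 33.0 RPKM in shG9a, and 18.4, 19.0 and 18.7 RPKM in pLKO (log2 difference -2.08 ± 0.058 SE, adjusted p = 1.3e-07). The 3 groups did not touch, and SQLE holds GAGGATA. MSMO1, a sterol demethylating oxidase, and FDFT1, squalene synthase, differed by -2.05 and -1.43. PMVK, ACAT2 and SC5D did not pass, at -0.06, 0.05 and 0.06. Without the 4 carriers of a 3′ UTR word, 15 of 16 enzymes were lower, with a median of -0.80.

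Genes of sterol uptake and its control lay the same way, with 14 of 16 tested lower in shPALI1 and 0 higher (median -0.56). INSIG1, a sterol sensor that holds SREBP in the endoplasmic reticulum, had 15.2, 14.8 and 16.01 RPKM in shPALI1, 65.2, 68.0 and 67.2 RPKM in shG9a, and 36.3, 37.4 and 30.6 RPKM in pLKO (log2 difference -2.06 ± 0.050 SE, adjusted p = 6.2e-08). The shPALI1 libraries lay below every pLKO library and the shG9a libraries above every one. NPC1, which exports cholesterol from lysosomes, differed by -1.69. SREBF1 and SREBF2, the genes of the SREBP transcription factors themselves, differed by -1.40 and -1.43, and SREBF2 averaged 29.7 ± 2.0 RPKM in shPALI1, 81.6 ± 3.6 in shG9a and 46.6 ± 3.8 in pLKO. Without carriers of the words, 11 of 12 were lower.

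Of 25 tested genes of fatty acid synthesis and desaturation, 17 were lower in shPALI1 and 3 higher (median -0.51; 12 and 1 of 17 without word carriers, median -0.75). Besides SCD and ACSL3, FADS2, a desaturase of polyunsaturated fatty acids, averaged 89.6 ± 4.8 RPKM in shPALI1, 414 ± 31 in shG9a and 176 ± 22 in pLKO (-2.19), FASN, fatty acid synthase, 199.8 ± 18 in shPALI1, 670 ± 32 in shG9a and 313 ± 56 in pLKO (-1.74), and ACSL1 differed by -1.60. ACSL4, ME1 and SCD5 were the 3 higher ones, at 0.98, 0.44 and 0.59. Ceramide and sphingolipid genes had 17 lower and 3 higher of 26 (median -0.46; 12 and 2 of 20 without word carriers). DEGS1, the ceramide desaturase, averaged 49.4 ± 4.7 RPKM in shPALI1, 215 ± 13 in shG9a and 211 ± 13 in pLKO (-2.10), so its shG9a and pLKO libraries overlapped. The ceramide synthases CERS6 and CERS4 differed by -1.96 and -1.51. Against these, SPTSSA, a small subunit of serine palmitoyltransferase, was higher by 1.47, at 17.5 RPKM in shPALI1, 5.67 in shG9a and 16.6 in pLKO.

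**Figure D4:**
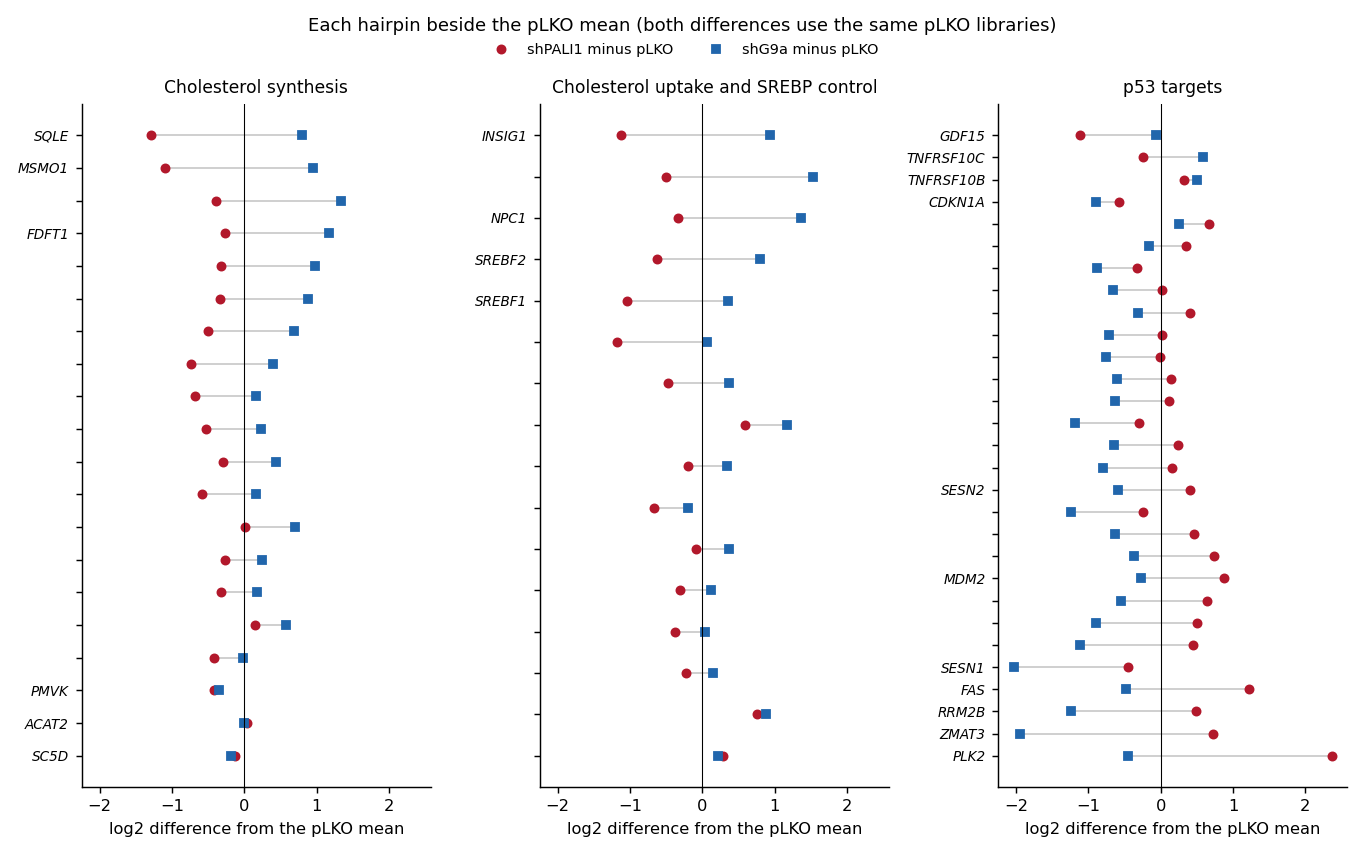
Log2 difference from the pLKO mean (horizontal) of shPALI1 (red circles) and shG9a (blue squares) for the tested cholesterol synthesis, cholesterol uptake and p53 target genes, 1 row a gene, joined by a line, with some of the genes named on the axis. Both differences use the same 3 pLKO libraries; for most sterol genes the red point lies left of the blue one and for 26 of 29 p53 targets right of it.

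Targets of the tumour suppressor p53 were the counterpart of the sterol genes. Of 29 tested, 26 were higher in shPALI1 than in shG9a, 12 of them at least 2-fold, and 3 were lower (median 0.90). The medians from pLKO were 0.32 in shPALI1 and -0.63 in shG9a, and pLKO lay between the groups for 14. After PLK2 and ZMAT3, the smallest p values were those of RRM2B, a ribonucleotide reductase subunit (29.4 ± 0.52 RPKM in shPALI1, 8.17 ± 0.46 in shG9a, 20.6 ± 1.3 in pLKO; log2 difference 1.73), and SESN1, a sestrin that restrains growth signalling (27.6 ± 1.1, 8.62 ± 0.42 and 38.3 ± 1.9 RPKM in the same order; 1.57). FAS, a death receptor, averaged 9.02 RPKM in shPALI1, 2.06 in shG9a and 3.29 in pLKO (1.71), and MDM2, the ubiquitin ligase that degrades p53, 43.1, 19.1 and 23.2 RPKM (1.14). CDKN1A, the p21 cell cycle inhibitor, was closer between the hairpins (124.8, 99.5 and 186 RPKM; 0.32) and lay below pLKO in both. GDF15, TNFRSF10C and TNFRSF10B were the 3 lower ones, at -1.05, -0.83 and -0.18. Of the 24 targets that hold neither word, 21 were higher and 3 lower (median 0.82).

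Cell cycle genes differed less. Of 25 mitotic genes, 15 were higher in shPALI1 and 1, INCENP, was lower (median 0.26; 11 and 3 after rescaling to TPM; 11 and 1 of 21 without word carriers), and 0 differed 2-fold. BIRC5, the apoptosis inhibitor survivin, averaged 24.7 ± 0.61 RPKM in shPALI1, 11.97 ± 0.84 in shG9a and 35.2 ± 3.2 in pLKO (0.99), so both hairpins were below the control. TOP2A, the mitotic topoisomerase, and NUSAP1, a spindle protein, differed by 0.76 and 0.78. BIRC5 and NUSAP1 hold TTTAACA. Of 34 DNA replication genes, 9 were higher and 6 lower (9 and 10 under TPM), shares no larger than the 29.3% of all tested genes called each way. TYMS at 0.80 and MCM7 at 0.46 were among the higher ones and E2F1 at -0.71 among the lower ones.

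Genes that androgen is known to activate were lower in shPALI1 for 18 of 27 tested and higher for 4 (median -0.41; 13 and 3 of 20 without word carriers, median -0.61). Medians from pLKO were -1.06 in shPALI1 and -0.39 in shG9a. ELL2, an elongation factor, averaged 3.11 ± 0.38 RPKM in shPALI1, 16.2 ± 0.98 in shG9a and 10.9 ± 0.42 in pLKO (-2.07), and PMEPA1, an inhibitor of TGF-beta signalling, 8.84 ± 0.17 RPKM in shPALI1, 34.1 ± 2.4 in shG9a and 21.3 ± 0.52 in pLKO (-1.83). KLK3 had 297, 262 and 342 RPKM in shPALI1, 341, 368 and 384 RPKM in shG9a, and 1160, 1129 and 1036 RPKM in pLKO. Its hairpin groups overlapped by 1 library and both lay far below the control (log2 difference -0.29, adjusted p = 0.034). The list overlaps others: ACSL3 is also a lipid gene, and holds GAGGATA.

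Of 21 luminal prostate genes, 14 were lower in shPALI1 and 5 higher (median -0.40; 12 and 5 of 18 without word carriers). MSMB and KRT19 reached the filter through shG9a alone, so their direction was fixed by it. Besides MSMB and KRT19, the adhesion gene CDH1 (E-cadherin) averaged 86.4 ± 3.7 RPKM in shPALI1, 235 ± 9.4 in shG9a and 118 ± 3.7 in pLKO (-1.43), and the tight junction gene CLDN4 71.5 ± 5.2 RPKM in shPALI1, 254 ± 21 in shG9a and 100.02 ± 9.5 in pLKO (-1.81). The 5 higher ones included the transcription factors GATA2 (0.64), FOXA1 (0.43) and HOXB13 (0.16) and the surface marker FOLH1 (0.24). The UGT2B enzymes, which conjugate androgens for removal and have near-identical copies whose reads may be shared, were above pLKO under both hairpins. UGT2B15 averaged 34.1 ± 1.6 RPKM in shPALI1, 59.4 ± 7.4 in shG9a and 8.58 ± 0.92 in pLKO (-0.78), UGT2B17 14.99 ± 0.55, 49.6 ± 5.5 and 11.4 ± 0.34 RPKM in the same order (-1.66), and UGT2B28 24.3 ± 2.2, 15.7 ± 1.5 and 6.25 ± 1.2 RPKM (0.60). Of 6 tested, 4 were lower in shPALI1 and 1 higher.

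Epithelial junction genes had 17 lower and 5 higher of 29 (median -0.29; 13 and 3 of 20 without word carriers), led by CLDN8 at -2.18, CLDN4, CDH1 and CGN, a tight junction scaffold, at -1.26. Genes of the actin cytoskeleton and smooth muscle had 16 higher, 10 of them at least 2-fold, and 6 lower of 27 (median 0.30; 15 and 4 of 24 without word carriers). ACTA2, smooth muscle actin, averaged 15.4 ± 1.5 RPKM in shPALI1, 3.29 ± 0.48 in shG9a and 1.60 ± 0.050 in pLKO (1.94), and CNN2, a calponin, 62.4 ± 4.6, 17.5 ± 1.2 and 17.6 ± 1.6 RPKM in the same order (1.78). FLNA, the crosslinker filamin A, averaged 216 ± 16 RPKM in shPALI1, 75.7 ± 5.2 in shG9a and 62.1 ± 4.6 in pLKO (1.503), and PDLIM7 differed by 1.31. LIMA1, an actin-bundling protein, was on the other side (5.90, 21.5 and 10.6 RPKM; -1.70). Actin genes resemble each other in sequence, so reads of ACTA2 and ACTG2 may be shared.

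Of 13 tested targets of the mechanosensitive factors YAP and TEAD, 7 were higher and 3 lower (median 0.63; 4 and 1 of 8 without word carriers). CTGF, GADD45A and CYR61 were the 3 higher at least 2-fold. CYR61, a matrix-associated relative of CTGF, averaged 15.5 ± 1.6 RPKM in shPALI1, 4.26 ± 0.27 in shG9a and 2.59 ± 0.33 in pLKO (1.65), and 14 of the 27 genes in the list did not reach the filter. Mesenchymal and matrix genes had 6 higher and 3 lower of 12, with THBS1 at 1.03 and COL3A1 at 0.91 against TIMP2 at -0.74. Of the 12, 3 reached the filter through shPALI1 alone, COL3A1 among them, so their direction was fixed by it. COL3A1 is also a fibroblast marker (2.02 RPKM in shPALI1, 0.611 in shG9a, 0.279 in pLKO), while the summed fibroblast markers lay at 5.24 to 5.69 RPKM in shPALI1, 5.37 to 6.18 in shG9a and 4.71 to 5.31 in pLKO, and DCN was at or near 0. Heparan sulfate proteoglycans split by gene: SDC2 was higher (9.07 ± 0.60 RPKM in shPALI1, 1.22 ± 0.19 in shG9a, 2.13 ± 0.38 in pLKO; 2.18) where SDC4 and SDC1 were lower (-3.43 and -1.32).

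**Figure D5:**
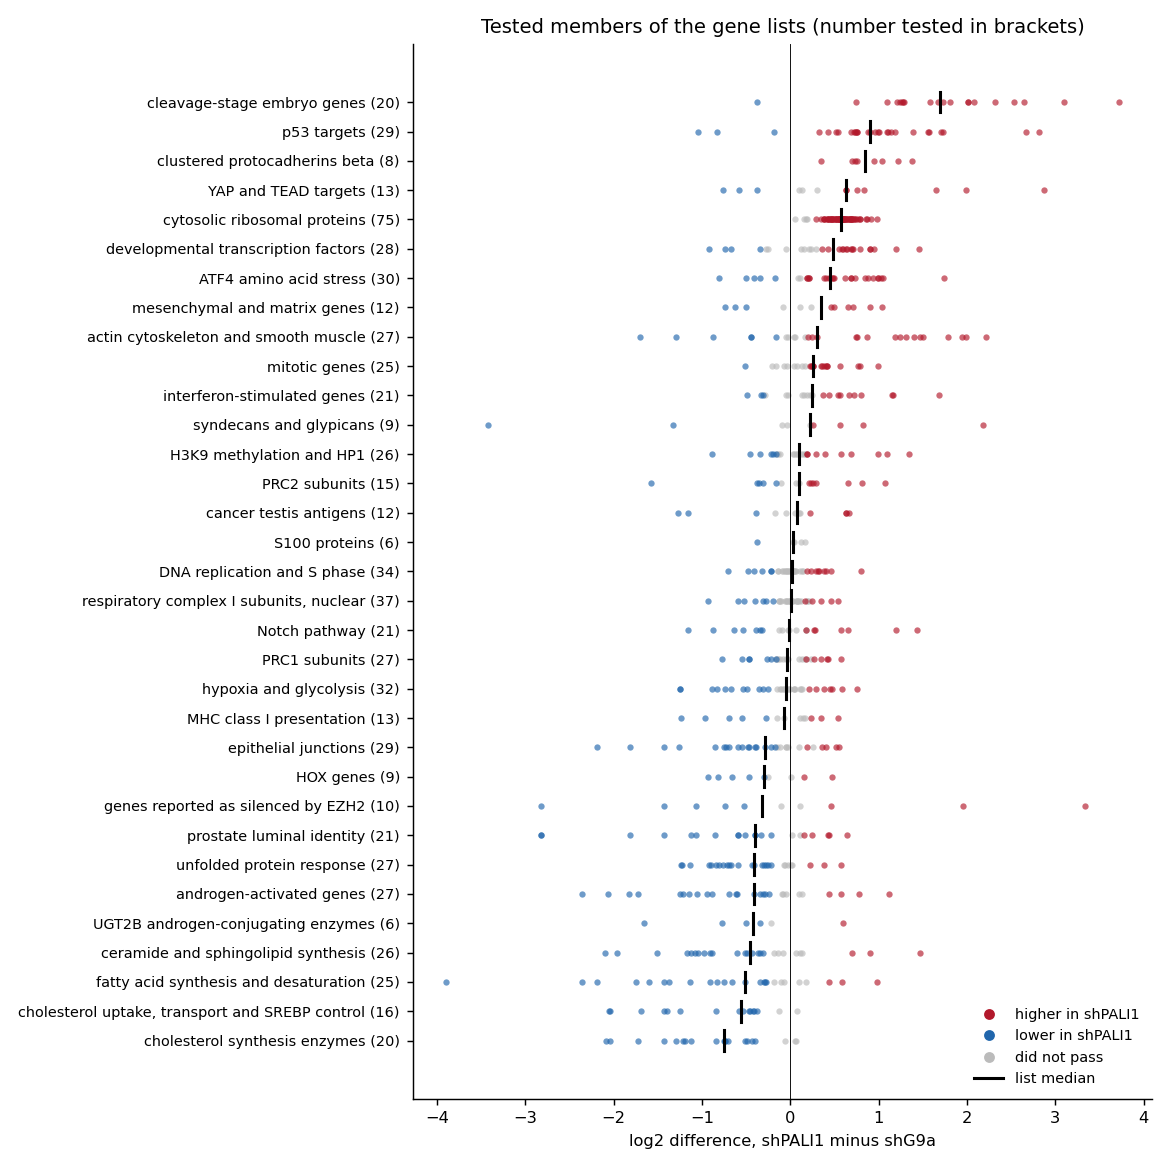
Log2 difference of shPALI1 minus shG9a (horizontal) for each tested member of the gene lists (rows, with the number tested in brackets), ordered by the list median (black bar). Red members passed as higher, blue as lower and grey did not pass; p53 targets, with a median of 0.90, stand near the top and cholesterol synthesis enzymes, at -0.75, at the bottom.

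A set of genes normally expressed in the cleavage-stage embryo was detected in shPALI1 and was lower or near 0 in shG9a and pLKO. The remaining groups of the series were not looked at here. The list was drawn up after these values had been seen, so its counts are a description. Of 48 such genes in the table, 20 reached the filter, which low genes could do only through the group where they are high; of these 19 were higher in shPALI1 and 1, KHDC1, was lower. ZSCAN4, a telomere-associated factor of early embryos known from mouse, had 4.64, 5.67 and 4.44 RPKM in shPALI1, 0.0327, 0 and 0.0311 RPKM in shG9a, and 0, 0.224 and 0.153 RPKM in pLKO (log2 difference 2.53). PRAMEF12 (chr1:12774841-12777906) averaged 13.2 ± 1.1 RPKM in shPALI1, 0.0797 ± 0.083 in shG9a and 1.42 ± 0.18 in pLKO (3.72). LEUTX, a homeobox gene of the early embryo, had 3.24, 3.14 and 2.71 RPKM in shPALI1 and was listed at 0 in all shG9a and pLKO libraries. KHDC1L (8.10 ± 2.3 RPKM in shPALI1, 0.0367 in shG9a), TRIM49B (5.34 ± 0.34 and 0.0180) and TRIM48 (4.23 ± 0.45 and 0.0473) followed. The PRAMEF, TRIM49, MBD3L and RFPL4 families have near-identical copies, and 70.7% of the exon bases of KHDC1L also belong to another gene, so the reads of these genes may be shared. Of the 19 members with an annotated UTR, 0 hold either word.

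The beta protocadherins, clustered adhesion genes with similar copies, were higher in shPALI1 for 8 of 8 tested, and the other 8 of the 16 did not reach the filter. Of the 8 tested, 5 reached it through shPALI1 alone, so their direction was fixed by it and their count is a description. PCDHB15 averaged 2.52 ± 0.087 RPKM in shPALI1, 0.352 ± 0.051 in shG9a and 0.536 ± 0.18 in pLKO (1.38), and PCDHB5, the most abundant of those named, 13.6 ± 1.2, 7.80 ± 0.71 and 4.47 ± 0.47 RPKM in the same order (0.73). Interferon-stimulated genes had 10 higher and 3 lower of 21 (median 0.25; 9 and 3 of 18 without word carriers), and 3 of them reached the filter through shPALI1 alone. The largest difference was that of IFI6 (31.0 ± 7.0 RPKM in shPALI1, 8.79 ± 0.10 in shG9a, 11.5 ± 1.4 in pLKO; 1.69). IFIT1 and IFIT2, which are among those 3, stayed at or below 2.13 RPKM in every library (1.15 and 1.16).

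Genes of the amino acid stress program run by ATF4 had 22 higher and 5 lower of 30 (median 0.45; 17 and 3 of 22 without word carriers), and the unfolded protein response of the endoplasmic reticulum went the other way, with 3 higher and 19 lower of 27 (median -0.41; 1 and 15 of 20 without word carriers). PSAT1, an enzyme of serine synthesis, averaged 114 ± 6.6 RPKM in shPALI1, 33.7 ± 2.4 in shG9a and 85.3 ± 9.5 in pLKO (1.73). SLC7A11, the cystine importer, SESN2 and PSPH, the last enzyme of serine synthesis, differed by 1.02, 0.99 and 0.93. ATF4 itself differed by 0.19 (121, 106 and 105.6 RPKM). In the other list CALR, a chaperone that binds calcium, averaged 295 ± 7.1 RPKM in shPALI1, 699 ± 59 in shG9a and 508 ± 24 in pLKO (-1.24), and EDEM1, DNAJC3 and HERPUD1 differed by -1.14, -0.84 and -0.81. HSPA5, the chaperone BiP, was among the 3 higher ones (0.57).

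Cytosolic ribosomal protein genes differed by small amounts in 1 direction. Of 75, all tested, 69 were higher in shPALI1 and 0 lower, with a range of 0.05 to 0.98 and a median of 0.57. The medians from pLKO were 0.31 in shPALI1 and -0.25 in shG9a, and pLKO lay between the groups for 34. RPL10 had 101.5, 88.7 and 84.9 RPKM in shPALI1, 48.1, 53.1 and 48.3 RPKM in shG9a, and 65.7, 61.3 and 54.8 RPKM in pLKO (0.86). RPL23A, RPS23 and RPL15 differed by 0.78, 0.79 and 0.72. After quantile normalization 54 were higher and 3 lower, with a median of 0.36. Many of these genes have processed pseudogenes, whose reads may be shared. Without word carriers 62 of 68 were higher. Over all genes with a matched transcript, the median difference was 0.09 in the bin of shortest genes, of 5 equal bins, and -0.04 in that of the longest. With each library corrected for the length and GC content of the transcripts, 69 were higher (median 0.54).

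Chromatin regulators differed in both directions. Of 15 tested PRC2 genes, 7 were higher and 5 lower (median 0.09), and of the 7 that hold neither word 2 were higher and 3 lower. The lower ones include C10orf12 and LCOR, and the higher ones C17orf96, which encodes the accessory protein EPOP (6.76 ± 0.45 RPKM in shPALI1, 2.70 ± 0.064 in shG9a, 6.11 ± 0.98 in pLKO; 1.07), and the histone-binding subunits RBBP4 and RBBP7 (0.81 and 0.65). EZH2, the catalytic subunit, averaged 16.7 ± 0.36 RPKM in shPALI1, 14.03 ± 0.058 in shG9a and 15.6 ± 1.3 in pLKO (0.24). Of 26 genes of H3K9 methylation and its readers, 9 were higher, the hairpin target EHMT2 included, and 6 lower (7 and 4 of 18 without word carriers). In all, 57.7% of these 26 were called, against 58.7% of all tested genes. ZNF644, a zinc finger partner of G9a, averaged 19.4 ± 1.3 RPKM in shPALI1, 8.54 ± 0.27 in shG9a and 9.94 ± 1.2 in pLKO (1.10), and SUV39H2, another H3K9 methyltransferase, 8.14 ± 0.42, 3.60 ± 0.36 and 7.17 ± 0.22 RPKM in the same order (0.99), while CBX5, the reader HP1 alpha, was lower (13.2 ± 1.6, 25.2 ± 1.4 and 26.9 ± 2.9 RPKM; -0.89). ZNF644 and RBBP4 hold TTTAACA. Of 27 PRC1 genes, 6 were higher and 7 lower, shares below the 29.3% of all tested genes called each way. CBX6, a chromodomain subunit, was above pLKO under both hairpins (38.6, 57.1 and 16.8 RPKM; -0.55).

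Genes that PRC2 is known to silence differed in direction by list. Developmental transcription factors were more often higher in shPALI1, while HOX genes and genes reported as silenced by EZH2 were more often lower. Of all tested genes, 29.3% were called each way. The higher members of the HOX and EZH2 lists lie near or below that share and the lower ones above it, but both lists are small. Of 28 tested developmental transcription factors, of 65 in the list, 16 were higher in shPALI1 and 4 lower (median 0.49; 11 and 3 of 20 without word carriers). Of the 28, 3 reached the filter through shPALI1 alone and 1 through shG9a alone, so their direction was fixed by it. ZIC2 averaged 21.4 ± 1.3 RPKM in shPALI1, 7.20 ± 0.14 in shG9a and 7.42 ± 0.058 in pLKO (1.45), and HES1, a Notch-responsive repressor, 6.91 ± 0.42, 2.46 ± 0.47 and 6.24 ± 0.47 RPKM in the same order (1.20). Of 39 HOX genes 9 reached the filter, with 5 lower and 2 higher, led by HOXC12 at -0.93 and HOXC6 at -0.82. Of 10 tested genes reported as silenced by EZH2, 3 were higher and 5 lower, with ADRA2A at 3.34 and CDKN2A, which encodes the inhibitor p16, at 1.96 (12.7 ± 1.7 RPKM in shPALI1, 2.51 ± 0.12 in shG9a, 7.07 ± 0.77 in pLKO), against MSMB at -2.82 and CDH1 at -1.43 among the lower ones.

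By a strict rule, few genes combined a large departure from the control with a narrow difference between the hairpins. For 6 genes both hairpins lay at least 1 on the log2 scale above the pLKO mean, and for 8 below it, while the 95% interval of the difference between the hairpins stayed within 0.32 of 0. Genes far from pLKO on the same side under both hairpins but apart from each other, such as UGT2B15, UGT2B28 and CBX6, are not among them. A gene with a wide library-to-library spread cannot meet the rule even where the hairpins are alike. All genes that far from pLKO on the same side were not counted. The 6 and 8 therefore do not measure how much of the response is shared. Above pLKO, TFPI, an inhibitor of blood coagulation, had 99.3, 94.5 and 102 RPKM in shPALI1, 90.4, 96.5 and 98.4 RPKM in shG9a, and 37.8, 45.9 and 39.5 RPKM in pLKO. The hairpin groups overlapped and both lay above every pLKO library (log2 difference 0.05, 95% interval -0.07 to 0.18). RHOBTB3 averaged 6.81 ± 0.33, 6.83 ± 0.22 and 2.40 ± 0.047 RPKM in shPALI1, shG9a and pLKO (-0.15 to 0.14), and SLITRK6, a neuronal membrane protein, 5.72 ± 0.89, 5.41 ± 0.52 and 1.15 ± 0.28 RPKM (-0.18 to 0.31). Below pLKO, PPAP2A, a lipid phosphatase activated by androgen, averaged 41.6 ± 3.1 RPKM in shPALI1, 44.2 ± 4.4 in shG9a and 110 ± 3.1 in pLKO (-0.27 to 0.10), and ALDH1A3, which makes retinoic acid, 8.54 ± 0.60, 8.13 ± 0.58 and 22.6 ± 1.4 RPKM (-0.10 to 0.23). ARG2, mitochondrial arginase, at 24.1, 26.4 and 63.0 RPKM, passed with a difference of -0.13 (adjusted p = 0.045), a call lost under quantile normalization (0.094), in the model over 15 libraries (0.19) and without any 1 library (0.051 to 0.14). Exons of another gene on the opposite strand cover 44.2% of the exon bases of ARG2 and 29.2% of those of ALDH1A3. More widely, 2929 of the 4990 genes that did not pass had an interval within 0.32 of 0, whether or not they departed from pLKO.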

How the data were processed

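RNA of LNCaP cells was sequenced from NEBNext Ultra libraries, per the labels. Expression was deposited by the authors as RPKM, in 1 table with a value per gene and library. Reads were aligned with STAR to hg38, per the submitters' processing notes; the counter, the annotation and the use of strand are not given in the sources used, so reads of overlapping genes cannot be told apart. The table had 26475 names, of which 32 had no values, 28 had turned into dates and 2 stood on 2 lines. Mitochondrially encoded mRNAs were represented by 0 genes.

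Kept were genes that reached 1 RPKM in 3 or more of the 6 hairpin libraries. limma 3.58.1 in R 4.3.3 was fitted to log2(RPKM + 1) with group as its term and a mean-variance trend, two-sided, with Benjamini-Hochberg adjustment over all 12073 genes and a threshold of 0.05. On this scale a difference is smaller than the log2 ratio of RPKM, mostly for low genes. Replicate values correlated across genes with r of 0.987 to 0.992. The procedure was tested on simulated data.

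The members, gene lists and tests were chosen with earlier results of these data known. Named genes are the targets, the 12 largest differences each way among genes that passed, did not overlap and averaged 2 RPKM or more in whichever group was higher, 4 members per list with the smallest p, 6 genes each way with pLKO between, and 5 each way that lay alike. Unnamed clones, numbered loci and pseudogenes were passed over, and not every gene the rule picks is reported here. Other genes were named for their known roles after their values had been seen. Lists are described by counts and medians.

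Words and locations were read from GENCODE v29 (GRCh38); 94.6% of tested names matched and 10572 had a 3′ UTR. Alternative settings used a pseudocount of 0.1 or 0.5, tested every gene or those averaging 3 RPKM or more, and scaled by median ratios, quantiles or TPM; others were 1 model over 15 libraries, a replicate block, and each library left out. A length and GC correction and lists without word carriers were added after seeing the data, as was the list of cleavage-stage genes.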

Additional observations from a re-analysis of the deposited data

How the results depend on the processing

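Among the counts of called genes, those called at least 2-fold moved most, with the pseudocount. The direction of calls moved under TPM, to 2767 higher and 4233 lower, against 3541 and 3542. With a pseudocount of 0.1, the genes called at least 2-fold numbered 499 higher and 646 lower, against 324 and 414, while 7043 genes passed in all. Calls numbered 7124 under median ratio scaling, 7199 under quantile normalization, 7000 under TPM, 7422 of 20836 with no filter, 6028 of 9594 among genes averaging 3 RPKM or more, 6035 in the model over 15 libraries and 7002 of 11405 with the length and GC correction, and 6201 to 6853 when 1 library was left out. Of the genes called both before and after each change, 2 had the opposite sign under quantile normalization and 0 in any other setting. Same-numbered libraries deviated from their group means with correlations of -0.050, -0.048 and -0.041, and other pairs with -0.035 to 0.073. These values show no shared effect of the replicate number. Whether same-numbered libraries were handled together cannot be told from them. With a replicate block 6777 genes passed, 3393 higher and 3384 lower. Among the genes named by the rule, differences that changed sign belonged to genes that had not passed. RHOBTB3 was at 0.0098 under quantile normalization. Under TPM, SLITRK6 was at -0.0141, TFPI at -0.0391, ALDH1A3 at -0.0184 and S100A7 at -0.0196. With the length and GC correction, SLITRK6 was at -0.0461, CARNS1 at 0.117 and S100A7 at -0.1397. With 1 library left out, RHOBTB3 ranged between -0.0335 and 0.0283, CARNS1 between -0.127 and 0.0341, SLITRK6 between -0.0156 and 0.173 and S100A1 between -0.0472 and 0.3425. The causes were not tested. DDA1 passed under quantile normalization, after correction for length and GC, and without shG9a replicate 2, and SLC4A4 under quantile normalization and without shPALI1 replicate 1. Depth limits low genes most: a value of 1 RPKM in a model of 2 kb rests on 21.1 to 31.9 reads.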

Other observations

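Other groups of genes are counted here beside a background of 29.3% of all tested genes called in each direction, and most of their shares lie near or below it. Of 21 tested Notch pathway genes, 7 were higher in shPALI1 and 7 lower: JAG1, a Notch ligand, averaged 17.4 ± 1.5 RPKM in shPALI1, 5.83 ± 0.19 in shG9a and 25.7 ± 1.4 in pLKO (log2 difference 1.43), and RBPJ, the DNA-binding partner of Notch, differed by 0.65, while ADAM10, a protease that cuts the receptor, differed by -0.88. Of 32 hypoxia and glycolysis genes, 7 were higher and 11 lower, with NDRG1 at -1.25 (10.4 ± 1.0 RPKM in shPALI1, 26.3 ± 2.0 in shG9a, 32.6 ± 4.5 in pLKO) and P4HA2, a collagen hydroxylase, at -1.25. Of 13 genes of MHC class I presentation, 3 were higher and 5 lower, with the peptide-loading gene TAPBP at -0.69 and the activator NLRC5 at -0.54, both above pLKO under both hairpins. Cancer testis antigens had 4 higher and 3 lower of 12 tested, with MAGEA4 at 0.67 and MAGEC2 at -1.27 (0.977 ± 0.094 RPKM in shPALI1, 3.78 ± 0.53 in shG9a, 0.614 ± 0.097 in pLKO); their copies are alike and may share reads. Of 37 nuclear-encoded subunits of respiratory complex I, 5 were higher and 7 lower. Of 6 tested S100 genes, 1, S100A11, was lower (-0.38) and 0 were higher.

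The sterol lists were also looked up for the SREBP motif TCACNCCAC, on either strand, in RefSeq windows of 300 bases around gene starts on GRCh38.p14. It was found in 0 of 15 cholesterol synthesis, 1 of 13 uptake (SREBF2) and 0 of 21 fatty acid promoters, and in 1.13% of 8875 promoters of tested genes and 1.15% of all 27305. The lists hold 20, 16 and 25 tested genes, so some members had no window. With so rare an exact match, 0 is the likely count in lists this short. The counts therefore cannot show whether these genes have or lack SREBP sites.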
